A study of Mus musculus with 4 samples.

Results

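The genes described here encode proteins of the centrosome and its centrioles, and were followed in the RPP631 line of mouse small cell lung cancer (SCLC) after 48 h with the vehicle DMSO or with 100 nM YKL. The series title calls the treatment an inhibitor of CDK7, a kinase that acts in the general transcription factor TFIIH and activates the kinases of the cell cycle. Members were the protein-coding genes with a symbol that starts with Cep and a number, and the genes Plk4, Stil, Sass6, Pcnt, Pcm1, Nek2 and Cdk5rap2, whereas Cenpj was left out. This gave 43 members among 22055 protein-coding genes and 54232 genes in all, 36 of them with a Cep symbol and 7 named singly. Each treatment had 2 libraries of bulk RNA, all from this single line, and separate cultures are not stated for the replicates. The genotype of the line is not in the labels.

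The centrosome organises microtubules and poles of the spindle, and the centrioles at its core also template the primary cilium. Centrioles duplicate once per cell cycle: the kinase PLK4 is drawn to the parent centriole, phosphorylates STIL, and SAS-6 then builds the cartwheel of the daughter. A matrix of pericentrin and CDK5RAP2 around the centrioles anchors the microtubule-nucleating gamma-tubulin complexes, and a proteinaceous linker joins the parent centrioles until NEK2 dissolves it before mitosis.

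Counts assigned to genes ranged from 29817387 to 34189709 per library, and the members took 0.297% to 0.369% of them. Levels are given as CPM, counts scaled by TMM to a common library size, fold changes are YKL over DMSO on the log2 scale with a standard error, and the threshold for a call was 0.05 on the Benjamini-Hochberg adjusted p of edgeR's quasi-likelihood test over 16749 genes. Summed over 10 neuroendocrine markers of SCLC, among them Chga and Syp, the libraries held 3500 to 4850 CPM, and 1 of the 10, the lung lineage factor Nkx2-1, fell. The T cell gene Cd3e had no count in any library, and 6 leukocyte markers summed to 3.11 and 4.99 CPM in DMSO and 8.15 and 5.18 CPM in YKL, with a call for Ptprc at means of 0.0317 and 0.765 CPM. The fibroblast markers summed to 12.6 and 25.1 CPM in DMSO and 44.8 and 18.1 CPM in YKL, nearly all of it from Pdgfra, and 4 endothelial markers to 2.34 to 4.07 CPM.

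Nearly all members were expressed. Of the 43, 42 passed the filter on low counts, and the exception was Cep295nl, for which DMSO gave 9 and 6 counts and YKL gave 7 and 8. Per length, as TMM-scaled CPM per 1000 bases of exon (RPKM), the satellite scaffold gene Pcm1 was the most abundant member at 55 RPKM in DMSO and 53 in YKL. Cep57, Nek2 and Cep120 came next, with means of 34.1, 32.2 and 31.1 RPKM over the 4 libraries. The trigger of duplication was less abundant: Plk4 had a mean of 12.2 RPKM, Sass6 4.67 and Stil 21.7. At the low end stood Cep126 at 1.82 RPKM and Cep85l at 1.06, above Cep295nl at 0.12. The median of the tested members, 6.91 RPKM, was close to the 6.92 RPKM of all protein-coding genes tested.

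**Figure D1:**
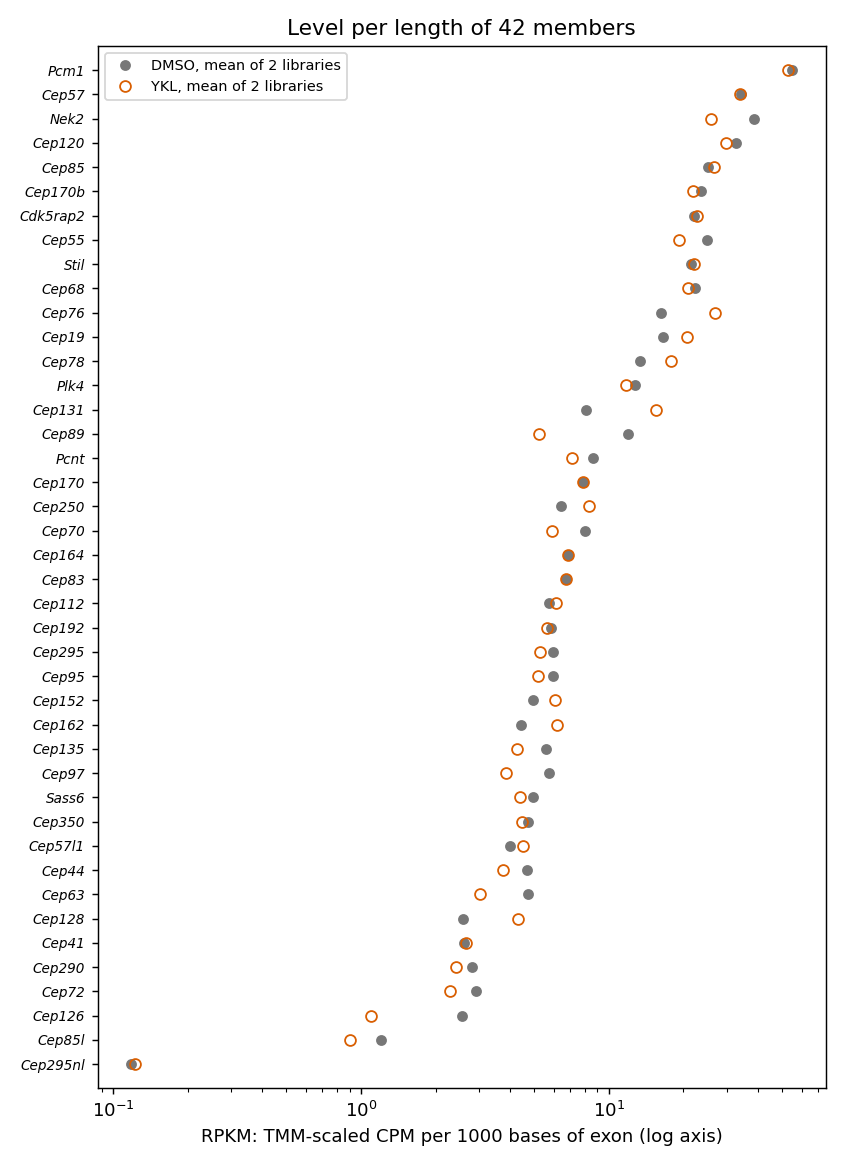
Level per length of 42 of the 43 members on a log axis (RPKM, TMM-scaled CPM per 1000 bases of exon), with the mean of the DMSO libraries as filled points and that of the YKL libraries as open circles. Pcm1 is highest at 55 and 53 RPKM, and Cep126, Cep89 and Cep131 show wide gaps between the groups.

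Of the 42 members tested, 1 fell and none rose in YKL. The share of members called, 2.38%, stood beside 3.54% of all genes (2.1% higher and 1.44% lower). Protein-coding genes had 3.89%, and those in the members' range of expression 4.7%. At an unadjusted p under 0.05 there were 9 members, 6 lower and 3 higher, or 21.4% against 21.2% of all genes and 22.2% of protein-coding genes. The median log2 fold change of the members was -0.09 and that of all genes 0. The groups did not overlap in 22 members (52.4%), YKL being below DMSO in 14 and above it in 8. Over all genes this separation was found in 52.3%, with 25.3% below and 27% above. In 33 of the 42 the log2 fold change was within 0.5 of 0, or 78.6%, against 67.5% of protein-coding genes and 74.8% of those in the members' range of expression. In bulk RNA, fewer cells of one kind and less RNA per cell cannot be told apart, and scaling hides a change shared by most transcripts.

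**Figure D2:**
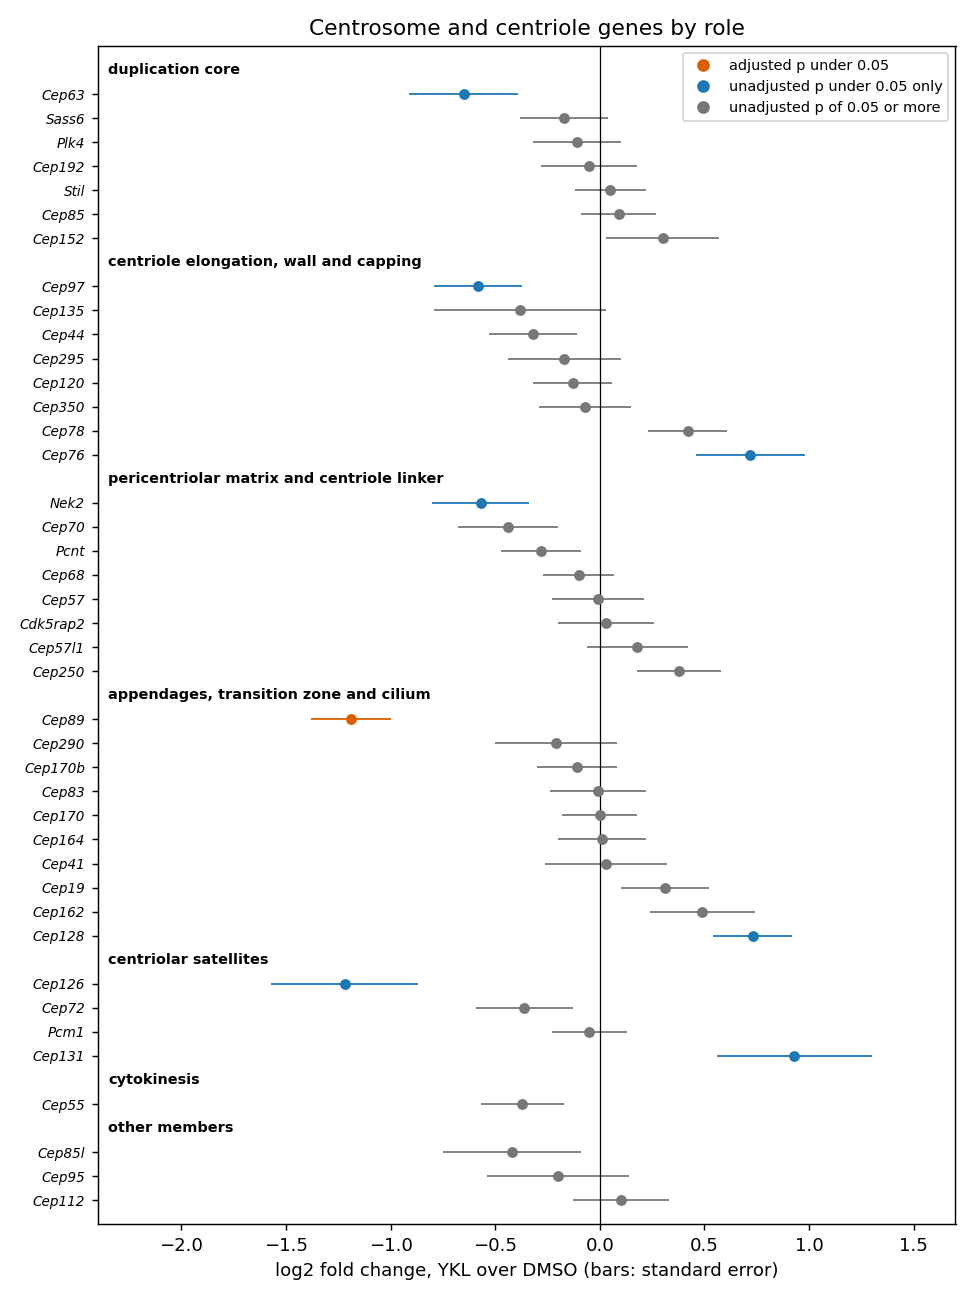
Log2 fold change (YKL over DMSO) of 41 of the 42 tested members grouped by role, with the standard error as bars; orange marks an adjusted p under 0.05, blue an unadjusted p under 0.05 alone, and grey the rest. Cep89 at -1.19 is the called member, and Cep126 at -1.22 and Cep131 at 0.93 lie farthest from 0 on either side among those not called.

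The called member was Cep89 (ENSMUSG00000023072, chromosome 7, 35397035 to 35438689, mm10, plus strand), which encodes a protein of the distal appendages, the blades that dock the mother centriole to the membrane when a cilium forms. Cep89 received 2092 and 1852 counts with DMSO and 800 and 872 with YKL, or 62.5 and 58.8 CPM against 26.1 and 27.1 CPM. The groups were far apart and the libraries within each close together. Cep89 fell 2.28-fold, from 60.6 ± 2.67 to 26.6 ± 0.678 CPM (± SD over n = 2 libraries), with a log2 fold change of -1.19 ± 0.19 and an edgeR adjusted p of 0.0189. Its exons shared no base with another gene in the count table. The call held in 11 of 13 alternative fits. Leaving out YKL replicate 1 gave -1.16 (adjusted p = 0.0975) and leaving out YKL replicate 2 gave -1.22 (adjusted p = 0.0936), in fits that called 0.606% and 0.402% of all genes. The other fits called 4.19% of all genes with RLE scaling, 1.01% with total count scaling, 1.98% with upper quartile scaling, 5.79% with no filter on counts and 4.82% with a filter of 5 CPM in 2 libraries. The share was 8.28% with the replicate number as a block, 1.41% without the robust prior, 3.62% over protein-coding genes alone, 10.2% by DESeq2, 7.61% without DMSO replicate 1 and 14% without DMSO replicate 2.

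Cep89 starts 199 bases from Faap24, a Fanconi anaemia gene that runs in the opposite direction, so that one short stretch lies before both genes. Faap24 had 21.4 and 19.1 CPM in DMSO and 19.5 and 25.6 CPM in YKL, and its groups overlapped. Its log2 fold change of 0.16 ± 0.25 was not called (adjusted p = 0.773). The difference between Cep89 and Faap24 was not tested. In all, 12 of the 43 members had a protein-coding gene starting within 1000 bases on the other strand, and none of these partners was called. The partner of Cep76, Psmg2, had a log2 fold change of 0.52 ± 0.20 beside 0.72 for Cep76.

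The stretch before the start of Cep89 is shown because Cep89 was the called member, beside those of Cep128, the member with the smallest p in the other direction, and of Nek2 and Plk4, kinases of the centrosome cycle that were not called. Each line gives 250 bases up to the RefSeq start (GRCm38.p6), 5′ to 3′ on the strand of the gene. Capitals mark matches on either strand to TTTGAA, the form of the cell cycle genes homology region, to CCAAT, the box bound by NF-Y, and to TTGGCGC and TTCCCGC, forms of the E2F site.
Cep89 (chr7:35396813-35397062, plus strand): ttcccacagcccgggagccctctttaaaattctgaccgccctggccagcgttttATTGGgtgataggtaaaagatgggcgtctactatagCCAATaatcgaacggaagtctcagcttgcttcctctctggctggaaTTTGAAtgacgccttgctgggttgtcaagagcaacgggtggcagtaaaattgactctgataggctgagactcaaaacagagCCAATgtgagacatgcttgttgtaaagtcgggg
Cep128 (chr12:91384410-91384659, minus strand): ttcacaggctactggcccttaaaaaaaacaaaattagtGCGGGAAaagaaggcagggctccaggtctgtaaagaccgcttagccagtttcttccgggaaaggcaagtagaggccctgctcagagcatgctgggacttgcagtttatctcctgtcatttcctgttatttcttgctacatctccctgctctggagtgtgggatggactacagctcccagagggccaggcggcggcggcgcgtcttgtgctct
Nek2 (chr1:191821223-191821472, plus strand): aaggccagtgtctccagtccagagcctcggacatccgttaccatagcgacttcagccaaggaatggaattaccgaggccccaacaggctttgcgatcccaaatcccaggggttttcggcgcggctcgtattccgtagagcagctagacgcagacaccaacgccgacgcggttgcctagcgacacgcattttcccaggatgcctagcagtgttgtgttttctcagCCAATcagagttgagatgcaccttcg
Plk4 (chr3:40799701-40799950, plus strand): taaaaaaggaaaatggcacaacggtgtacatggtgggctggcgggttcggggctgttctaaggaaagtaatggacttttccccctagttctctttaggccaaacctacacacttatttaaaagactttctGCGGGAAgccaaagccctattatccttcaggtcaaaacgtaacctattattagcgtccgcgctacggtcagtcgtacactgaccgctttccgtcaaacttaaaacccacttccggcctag

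Before Cep89 there were 3 matches to CCAAT, at positions -196, -160 and -33 counted from the start, and a match to TTTGAA at -114. In the printed bases Nek2 had a match to CCAAT at -26, and Cep128 and Plk4 a single match to TTCCCGC on the other strand, at -212 and -120. Windows of 300 bases, 50 of them past the start, were given by RefSeq for 36 of the members and for 27025 genes. These 27025 genes were not limited to protein-coding or expressed genes, whereas the members are protein-coding and nearly all expressed. Of the 36, 12 held TTCCCGC in any of their windows, or 33.3% against 5.29% of the 27025 genes. For CCAAT these shares were 50% and 41.1%, and for TTTGAA 30.6% and 20.2%, whereas TTGGCGC was in none of the members' windows and in 2.85% of all. The member windows were richer in G and C, at a median of 61.3% against 52.7%, and a match is a description of letters, not of a bound site.

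Genes of the duplication core were not called. Plk4, the kinase that starts duplication (ENSMUSG00000025758), had 98.9 and 74.6 CPM in DMSO and 87.8 and 72.5 CPM in YKL. Stil, its substrate and the bridge to SAS-6, had 124 and 123 CPM in DMSO and 128 CPM in each YKL library. Sass6, which encodes the cartwheel protein SAS-6, had 32.2 and 28.3 CPM in DMSO and 27.6 and 26.2 CPM in YKL. The groups overlapped for Plk4 and were separated by small gaps for Stil and Sass6. Their log2 fold changes were -0.11 ± 0.21 for Plk4, 0.05 ± 0.17 for Stil and -0.17 ± 0.21 for Sass6, with adjusted p values of 0.811, 0.914 and 0.705. The exons of Sass6 share 389 bases with Trmt13 and 1502 with the antisense gene Gm42893, the latter without a count.

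The scaffolds that bring PLK4 to the parent centriole were not called either. Cep192 and Cep152, its receptors, had log2 fold changes of -0.05 ± 0.23 and 0.30 ± 0.27, and Cep85, a partner of STIL, had 0.09 ± 0.18. Cep63, the partner of CEP152 in a ring around the centriole, had 55.6 and 34.6 CPM in DMSO and 31.5 and 26.2 CPM in YKL. Its log2 fold change was -0.65 ± 0.26 (adjusted p = 0.191), and the DMSO libraries differed by more from each other than DMSO replicate 2 did from the YKL libraries. Without DMSO replicate 2 Cep63 was called at -0.98, and without DMSO replicate 1 it had -0.26. The exons of Cep63 share 239 bases with Anapc13 on the other strand.

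Among 9 genes for centriole elongation, wall and capping none was called, with 7 values below 0 and 2 above. All genes tested had 8376 values below 0 and 8373 above. Cep97, the partner of the cap protein CP110, had 44.8 and 60.2 CPM in DMSO and 35.2 and 35.1 CPM in YKL. Cep76, which limits repeated duplication, had 80 and 49.5 CPM in DMSO and 122 and 90.7 CPM in YKL. In both the groups were apart, Cep97 lower and Cep76 higher in YKL, but neither passed the adjustment. The log2 fold changes were -0.58 ± 0.21 for Cep97 (adjusted p = 0.156) and 0.72 ± 0.26 for Cep76 (adjusted p = 0.166). In the same group Cep135, Cep44, Cep295, Cep120, Cep350 and Cep78 ran from -0.38 to 0.42. Cep76 was called with no filter, with the replicate number as a block (adjusted p = 0.0264) and without DMSO replicate 1, at 1.11, whereas it had 0.38 without DMSO replicate 2. Cep97 was called without DMSO replicate 1, at -0.77, and had -0.38 without DMSO replicate 2. The cartwheel gene Cep135 had 48.6 and 31.6 CPM in DMSO and 42.3 and 19.2 CPM in YKL, with overlapping groups and a log2 fold change of -0.38 ± 0.41. Without DMSO replicate 2 Cep135 was called at -0.70 (adjusted p = 0.0453), and the value was -1.06 without YKL replicate 1 and 0.07 without YKL replicate 2, neither called.

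The pericentriolar matrix and the linker had no called member among 8. Nek2, the kinase that opens the linker (ENSMUSG00000026622, chromosome 1, 191821444 to 191833050), had 211 and 136 CPM in DMSO and 120 and 113 CPM in YKL. DMSO replicate 1 stood well above the 3 other libraries, which lay close together. The log2 fold change of -0.57 ± 0.23 was not called (adjusted p = 0.187). It was called without DMSO replicate 2, at -0.89, and stood at -0.22 without DMSO replicate 1. Of the exonic bases of Nek2, 298 are shared with the antisense gene Gm38037, whose mean went from 2.78 to 5.52 CPM without a call.

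The main matrix genes were not called either. Pcnt, the gene of pericentrin, had 116 and 94.5 CPM in DMSO and 90.6 and 82.5 CPM in YKL (log2 fold change -0.28 ± 0.19, adjusted p = 0.437). Cdk5rap2, which encodes an activator of the gamma-tubulin complex, had 332 and 244 CPM in DMSO and 342 and 248 CPM in YKL. In Cdk5rap2 the replicates of each group differed by 0.45 and 0.46 on the log2 scale, whereas the fold change between treatments was 0.03 ± 0.23. The structural linker genes Cep250 and Cep68 had log2 fold changes of 0.38 ± 0.20 and -0.10 ± 0.17, and the exons of Cep250 share 1149 bases with 6430550D23Rik. The paralogues Cep57 and Cep57l1, which hold parent and daughter centriole together, had -0.01 ± 0.22 and 0.18 ± 0.24. For Cep70 the value was -0.44 ± 0.24.

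**Figure D3:**
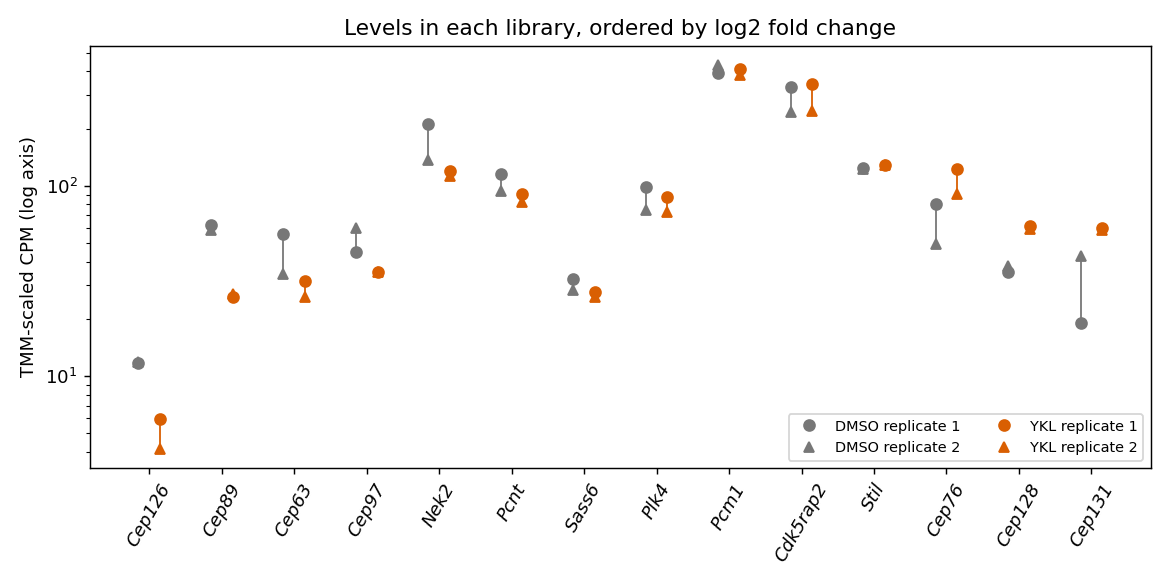
TMM-scaled CPM on a log axis in each library for the 7 members named singly and 8 of the 9 members with an unadjusted p under 0.05 (Nek2 is in both), ordered by log2 fold change; circles are replicate 1, triangles replicate 2, grey DMSO and orange YKL. Cep89 and Cep128 show tight pairs that stay apart, whereas the DMSO libraries of Cep131 lie at 19.1 and 43 CPM.

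Of 10 genes for appendages, transition zone and cilium, Cep89 was the one called. Besides Cep89, the distal appendages need Cep83 and Cep164, whose products sit at the base and the tip of the blades. Cep83 had 50.1 and 48 CPM in DMSO and 58.8 and 38.8 CPM in YKL, and Cep164 had 56 and 80.5 CPM in DMSO and 69.1 and 67.9 CPM in YKL. Both had overlapping groups, with log2 fold changes of -0.01 ± 0.23 for Cep83 and 0.01 ± 0.21 for Cep164. The difference between Cep89 and these genes was not tested.

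Cep128 (ENSMUSG00000061533, chromosome 12, 90998492 to 91384409) encodes a protein of the subdistal appendages, which anchor microtubules. It had 35.2 and 37.7 CPM in DMSO and 61.7 and 59.2 CPM in YKL. The libraries of a group were close and the groups apart, with a log2 fold change of 0.73 ± 0.19 that missed the threshold (adjusted p = 0.0636). It was called by DESeq2, without the filter, with the replicate number as a block and without DMSO replicate 2, with values of 0.69 to 0.76 over the 13 alternatives. Another subdistal gene, Cep170, had 0.00 ± 0.18, and its paralogue Cep170b -0.11 ± 0.19. The cilium genes Cep290, Cep162, Cep41 and Cep19 had log2 fold changes of -0.21, 0.49, 0.03 and 0.31 and were not called. Cep162 had 90.7 CPM in YKL replicate 1, whereas the 3 other libraries lay at 50.2 to 53.1 CPM.

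The 4 members of the centriolar satellites, granules that carry proteins to the centrosome, differed in sign. Pcm1, their scaffold, had 390 and 431 CPM in DMSO and 409 and 382 CPM in YKL (log2 fold change -0.05 ± 0.18, adjusted p = 0.907). Cep126 had 11.7 and 11.9 CPM in DMSO and 5.97 and 4.16 CPM in YKL, both YKL libraries well below. Its log2 fold change of -1.22 ± 0.35 was similar in size to that of Cep89, but it was not called (edgeR adjusted p = 0.0866). Cep126 had lower counts than Cep89, at 134 to 391 per library. Its log2 ratio of YKL replicate 1 over 2 was 0.52, against -0.05 for Cep89. The reason for the missing call was not tested. Cep126 was called in 5 of 13 alternative fits, among them DESeq2 and the fit with the replicate number as a block.

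Cep131, a satellite gene needed for traffic to the cilium, had 19.1 and 43 CPM in DMSO and 59.8 and 58.7 CPM in YKL. The YKL libraries were almost equal, and the spread came from the DMSO pair. The log2 fold change was 0.93 ± 0.37 (adjusted p = 0.217). Cep131 was called with no filter, at 0.91 (edgeR adjusted p = 0.00259), and without DMSO replicate 2, at 1.60. It had 0.47 without DMSO replicate 1. Cep72 had a value of -0.36 ± 0.23.

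**Figure D4:**
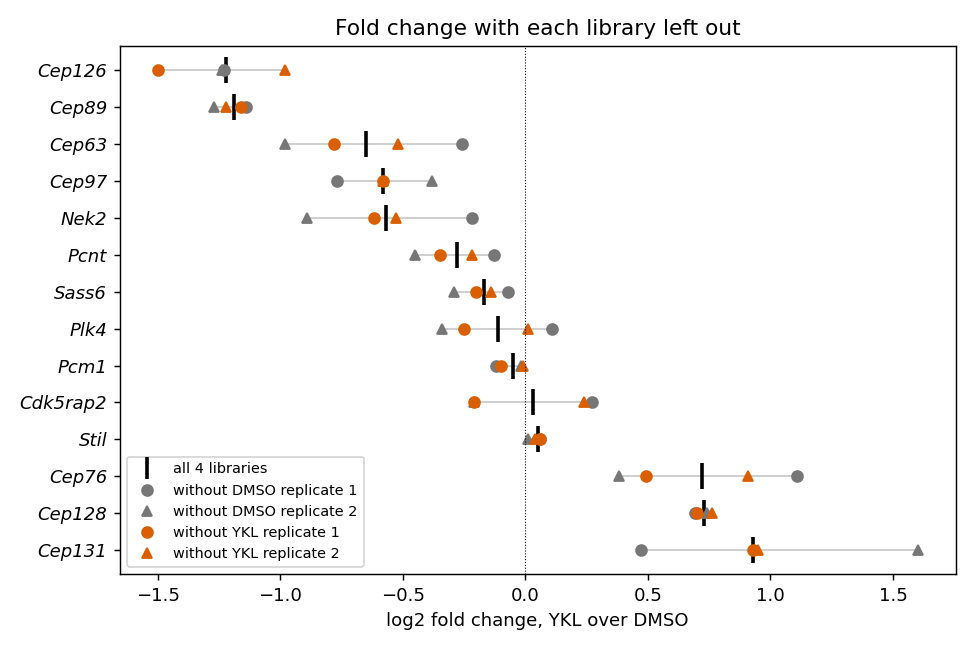
Log2 fold change (YKL over DMSO) with all 4 libraries (black bar) and with each library left out (grey symbols, without a DMSO library; orange symbols, without a YKL library) for the named members. Cep89 and Cep128 stay within -1.27 to -1.14 and 0.69 to 0.76, whereas Cep131 runs from 0.47 to 1.60 and Plk4 and Cdk5rap2 change sign.

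Cep55, whose product recruits the abscission machinery to the midbody at the end of cytokinesis, had 62.3 and 75.5 CPM in DMSO and 59.4 and 47.1 CPM in YKL (log2 fold change -0.37 ± 0.20, adjusted p = 0.332). Its groups did not overlap, but the gap was small against the spread within them. The members without a role list were Cep85l, Cep95 and Cep112, at -0.42, -0.20 and 0.10, and the untested Cep295nl.

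Nek2, Plk4 and Cep55 are known for higher transcript levels late in the cell cycle, so genes of its phases were set beside them. Of 20 genes for G2 and mitosis, 11 fell and none rose, with a median log2 fold change of -1.05. Ube2c, an enzyme of the anaphase-promoting complex, had 292 and 227 CPM in DMSO and 77.7 and 68.6 CPM in YKL (adjusted p = 0.00795). Cdc20, an activator of that complex, and Ccnb2, cyclin B2, had log2 fold changes of -1.66 and -1.53 (adjusted p = 0.0102 and 0.0105). Of the 20 genes, 2 were called without YKL replicate 2, where Ccnb2 had an adjusted p of 0.0658, and 17 without DMSO replicate 2. Of 14 genes for S phase, 2 rose and none fell, with a median of 0.12. These were Ccne1, cyclin E1, from 78.4 ± 0.887 to 163 ± 15.8 CPM, and Cdc6, a licensing factor, from 128 ± 2.46 to 244 ± 13.9 CPM, and neither was called without YKL replicate 1 or without YKL replicate 2. The values of Nek2, Plk4 and Cep55 were -0.57, -0.11 and -0.37, and their difference from the list was not tested. The part of cell cycle position in the members' values was not tested.

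Of 52 other genes of the centrosome, in 4 lists, 1 rose and 1 fell. Among 8 subunits of augmin, which branches spindle microtubules, Haus4 rose 2.11-fold, from 32.2 and 27.2 CPM in DMSO to 64.6 and 60.5 CPM in YKL (adjusted p = 0.026). Among 21 further centriole and appendage genes, Odf2, which builds the appendages of the mother centriole, fell 1.72-fold, from 175 and 176 CPM to 107 and 96.9 CPM (adjusted p = 0.0443). Both calls were lost when either YKL library was left out, and that of Odf2 was also lost with total count or upper quartile scaling and without the robust prior. The distal appendage genes Fbf1 and Sclt1, chosen after their values were seen, had log2 fold changes of -0.84 and 0.60 and no call.

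None of the 10 genes of the gamma-tubulin ring complex was called, and 8 of the 10 values were above 0. Its most abundant members by CPM, Tubg1 and Tubgcp3, had log2 fold changes of 0.45 ± 0.18 and 0.05 ± 0.17, and Tubg2, chosen after its value was seen, had 0.82 ± 0.22 (adjusted p = 0.0741). None of 13 further linker, matrix and spindle pole genes was called, and 12 of the 13 values were below 0. Over all genes tested, 8373 values were above 0 and 8376 below. Among the 13 genes the median log2 ratio of YKL replicate 1 over 2 was 0.34, against 0 over all genes. The most abundant of the 13 by CPM, Ckap5, a microtubule polymerase, had -0.36 ± 0.19. Aspm, a spindle pole gene chosen after its value was seen, had -1.55 ± 0.36 (edgeR adjusted p = 0.0814). At an unadjusted p under 0.05 there were 15 of the 52 genes of the 4 lists, or 28.8%. This share was 21.2% in all genes, 22.2% in protein-coding genes and 24.4% in those in the members' range of expression. The 15 were 3 gamma-tubulin genes and 2 augmin genes, all higher, 5 further centriole and appendage genes, 1 higher and 4 lower, and 5 linker and spindle pole genes, all lower.

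**Figure D5:**
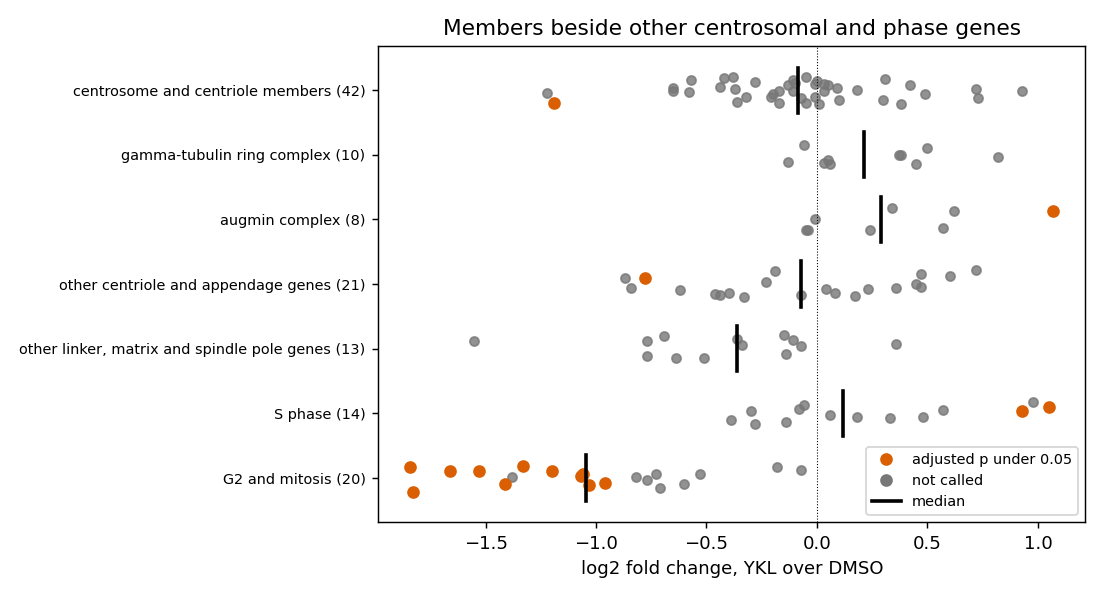
Log2 fold change (YKL over DMSO) of each tested gene in the members and in 6 other lists, with called genes in orange and the median as a black bar. The members centre on -0.09 with a single call, Cep89, whereas the G2 and mitosis genes centre on -1.05 with 11 calls.

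Cep63 has a paralogue, Deup1, which builds the deuterosomes that make many centrioles at once in multiciliated cells. Deup1 rose 5.29-fold, from 7.17 and 5.96 CPM in DMSO to 42.3 and 27.3 CPM in YKL (adjusted p = 0.00795), while Cep63 was not called, and the difference between the paralogues was not tested. Of 7 markers of multiciliated cells 6 were tested and 3 rose, namely Deup1, Ccno and Mcidas, the last with its call lost without YKL replicate 2 (adjusted p = 0.114) and with total count scaling (adjusted p = 0.05). Ccno and Mcidas lie close together on the plus strand of chromosome 13, where Ccno ends at base 112990777 and Mcidas starts at 112993845. The 7 markers summed to 32.6 and 39.4 CPM in DMSO and 147 and 143 CPM in YKL. No marker was at 0 in every library, although Gmnc and Tekt1 stayed below 1 CPM in each group mean. The axonemal gene Dnah5 had 3.16 and 2.01 CPM as group means and the ciliogenesis factor Foxj1 6.73 and 14.7 CPM, neither called. The part of these genes in the values of the cilium-related members Cep89, Cep126 and Cep128 was not tested.

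The YKL libraries were unequal over the members. In 37 of the 42, or 88.1%, a pattern noticed after the values were seen, YKL replicate 1 had the higher level, whereas this held for 49.4% of all genes and 47.3% of protein-coding genes. The median log2 ratio of YKL replicate 1 over 2 was 0.19 over the members and 0.00 over all genes. It was not particular to the members. The ratio was 0.34 over the further linker, matrix and spindle pole genes and 0.23 over the G2 and mitosis genes. Over the further centriole and appendage genes it was 0.11. For the gamma-tubulin, augmin and S phase genes it was -0.03, -0.17 and -0.16. In DMSO, replicate 1 was higher in 24 of the 42 members (57.1%, against 49.6% of all genes), with a median of 0.05. Among the members, the widest gaps in YKL were those of Cep135, Cep290 and Cep295, at 1.14, 0.91 and 0.85 on the log2 scale. With all libraries none of these genes was called, and without YKL replicate 2 the sign of each changed, to 0.07, 0.17 and 0.19. The members' median log2 fold change was -0.24 without YKL replicate 1 and 0.08 without YKL replicate 2. Across the 42 members the ratio went with a lower GC content of the longest transcript (Pearson r = -0.32, Spearman rho = -0.36), values that share the same 2 libraries, and over all genes r was -0.04. The members had a median GC content of 45.9% against 49.7% of all genes. The ratio also went with a longer gene span across the members (Pearson r = 0.25, Spearman rho = 0.31), beside r = 0.09 over protein-coding genes. Mitochondrially encoded genes took 1.78% of the counts in YKL replicate 2, 1.25% in YKL replicate 1, and 1.01% and 1.14% in DMSO. The part of GC content, span or library quality in the ratio was not tested.

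In the authors' deposited table of their own DESeq2 comparison, 42 of the members are listed and 11 have an adjusted p under 0.05, where 27.8% of all its entries do. Of these 11, 4 have a higher and 7 a lower value in YKL. They are the 9 members with an unadjusted p under 0.05 in edgeR and, in addition, Cep78 and Cep70, at 0.39 and -0.44 in the authors' deposited table. Cep89 has the smallest p among the members there, with a log2 fold change of -1.15. DESeq2 on the deposited counts called 4 members and 10.2% of all genes. The authors' mean signals do not follow from the deposited counts by library scaling alone. Stil has a mean signal of 3420 there, beside 3888 to 4155 counts per library, and Cep68 has 4140, beside 3685 to 4467. The reason for the mismatch was not tested. The authors' values are given for the same comparison of this series and are no independent evidence.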

How the data were processed

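RNA of 4 libraries was analysed, 2 for each treatment. The submitters' processing notes name STAR 2.5.2b, featureCounts, DESeq2 and the build mm10. The strand setting is not given in the sources used here. It is thus not known whether reads of overlapping genes on opposite strands were told apart. The authors deposited raw counts per gene and library, with the summed exon length, other values such as symbol and biotype in a gene annotation, and their own comparison, whose columns are a mean signal after normalization, log2 fold changes, a score of the test and p-values; 28 of its 15936 entries with an ambiguous name were dropped.

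Counts were tested with edgeR 4.0.16 in R 4.3.3: filterByExpr (minimum count 10, minimum total 15), TMM scaling, and a robust quasi-likelihood fit with 2 residual degrees of freedom and Benjamini-Hochberg adjustment over 16749 genes. Biological variation had a common coefficient of 25%. The standard error is the absolute log2 fold change over the square root of F. The p-values set the difference between groups against the spread between these samples, moderated over all genes. That spread may be technical. The procedure was tested on simulated data.

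Members and lists were chosen with earlier results of these data known. Values in every library are given for the 7 members named singly, the called member and those at an unadjusted p under 0.05; in the other lists, called genes or, with none, the 2 most abundant. Library values of other members, and the further genes of those lists, were chosen after they were seen. Members of the rule were found in the deposited annotation, and no gene had the symbol Sas6. Some results, 1 member's own values among them, are not reported here. Exon overlaps come from the count table, promoter windows from RefSeq (GRCm38.p6) and GC content from GENCODE M21. Other fits used RLE, upper quartile or total count scaling, another filter (none, or 5 CPM in 2 libraries), protein-coding genes only, a block for the replicate number, a prior without robust estimation, DESeq2 1.42.0, or 1 library fewer. Figures were drawn with matplotlib 3.10.9.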

Additional observations from a re-analysis of the deposited data

How the results depend on the processing

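The number of calls depended on the fit. Of 593 called genes, 351 were higher and 242 lower with all libraries; these counts were 98 and 71 with total count scaling, 201 and 130 with upper quartile scaling, 905 and 835 with no filter, 140 and 96 with a prior that was not robust and 757 and 709 by DESeq2. With 1 library left out they ran from 52 to 1393 higher and from 19 to 1060 lower, the lowest without YKL replicate 2 for both and the highest without DMSO replicate 2. With the replicate number as a block, 785 were higher and 602 lower; the log ratios of replicate 1 over 2 in DMSO and YKL correlated at 0.159 over 16749 genes, and the labels do not say that the numbers pair the libraries.

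Of the members, none was called higher and 1 lower with all libraries. Called higher and lower were 3 and 3 without the filter, where 5.79% of all genes were called, 2 and 2 with the replicate block (8.28%), and 1 and 3 by DESeq2 (10.2%). With 1 library left out, 0 to 2 were called higher and 0 to 6 lower, the most without DMSO replicate 2, where 14% of all genes were called. The members' median of -0.09 ran from -0.24 to 0.08 with 1 library left out. In the other centrosome lists, higher and lower calls were 3 and 7 without the filter, 3 and 5 with the block, 3 and 4 by DESeq2, 0 lower with total count or upper quartile scaling and without the robust prior, and 0 to 5 each way with 1 library left out. Of the G2 and mitosis genes 7 were called with total count scaling and 2 to 17 with 1 library left out, and of the S phase genes 0 to 4. Plk4 ran from -0.34 without DMSO replicate 2 to 0.11 without DMSO replicate 1, with 0.01 without YKL replicate 2. Cdk5rap2 ran from -0.21, without DMSO replicate 2 or YKL replicate 1, to 0.27 without DMSO replicate 1. These are changes of sign with no call. Over all 42 members tested and 13 alternatives there were 42 changes of sign, in 19 members whose log2 fold change was at most 0.38 in size with all libraries. The cause was not tested. For 33 genes (the members named singly or at an unadjusted p under 0.05, and the called genes of the other centrosome, phase and multiciliated lists), 365 alternative values kept direction and side of the threshold, 40 lost and 20 gained a call, and 4 changed sign. Apart from the members named singly, these 33 genes were chosen by their p with all libraries, so a change of sign was less likely. Where a library is left out, the lone sample is assumed to vary like the other group. A member that was not called may still differ.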
